A study of Arabidopsis thaliana with 72 samples.

Results

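The small line cl_sml2 is an F7 line of Arabidopsis thaliana that was derived from the hybrid between the accessions Col and Ler. In each generation the smallest plants were selected, and by the paper's criterion those that flowered outside the range of the parents were excluded. The line was set against its parents by leaf RNA. It is represented by 3 of the 72 libraries of the series, chosen by their label, and was compared with the mid-parent value (MPV), in which the 3 libraries of Col and the 3 libraries of Ler each have an equal weight. A second small line of the same cross, cl_sml1, also with 3 libraries, served to show where the small lines differ. Col and Ler are accessions, of which Ler carries a mutant form of the receptor kinase gene ERECTA, and the small lines are their offspring. None of these plants carried a transgene or had an applied treatment. They were grown on MS medium and then in soil in long days, and rosette leaves were collected at 25 days after sowing. In the paper's germination counts fewer cl_sml2 seeds than seeds of either parent had germinated at the earlier time points. The part of developmental stage in the changes below was not tested. As a model, cl_sml2 is 1 selected line: each of its libraries held leaves of 1 plant of that line, whereas a library of Col or of Ler pooled 3 plants, so that the spread between libraries is not of the same kind in the groups. The p-values rest on the spread between plants or pools within groups, estimated jointly over all groups of a fit. These also held the F1 hybrids, CL_HM1 to CL_HM4 (lines of the same cross selected for F1-like size) and, for MPV, in-silico libraries. The sources used here do not state whether the sampled plants came from 1 growth experiment. A spread between experiments was not measured.

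Selfed offspring of a hybrid fix, at each locus, the allele of either parent, and repeated selection for size can bring together alleles that act on growth. Leaf growth rests on cell division, on cell expansion through loosening and synthesis of the cell wall, and on carbon from photosynthesis. Salicylic acid, which induces PATHOGENESIS-RELATED (PR) genes through the receptor NPR1, is known to restrict growth when its level is high, and jasmonic acid, whose signalling is repressed by the JAZ proteins, acts in the defence against insects and wounding. The circadian clock of leaves consists of morning genes (CCA1, LHY) and evening genes (TOC1, ELF4) that repress each other and control a large part of the daily expression programme.

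The libraries of cl_sml2 held 19714189 to 23516915 counts on genes, those of cl_sml1 17741358 to 19819366, those of Col 19878340 to 20551711, and those of Ler 19941341 to 28527725. Levels of single genes are given below as normalized counts, that is counts scaled by TMM to a common library size, and a gene was called changed at an adjusted p of 0.05 or less in edgeR's quasi-likelihood test with Benjamini-Hochberg adjustment. The cl_sml2 library R2 stood apart from the other cl_sml2 plants. In it 192 of 16030 genes were over 4-fold higher than in both other plants of the line, against 1 gene in R1 and 7 genes in R3. Among the parents Ler R3 was the deepest library and had 10 genes over 4-fold above and 19 genes over 4-fold below the other Ler libraries. Results that rest on R2 are given with and without it. The TMM factors were higher in the small lines (1.13 to 1.14 in cl_sml2, 1.12 to 1.15 in cl_sml1) than in Col and Ler (0.915 to 1.04), and the median gene, at a log2 fold change of -0.0134 against MPV, lay 0.259 higher, at 0.246, when libraries were scaled by total counts alone. Changes below are relative to the median gene. All 8 markers of leaf mesophyll were detected in each group, while AP1 and LFY of flowers, WUS and CLV3 of the shoot apex and PLT1 and PLT2 of roots were at 0 in all 3 cl_sml2 libraries. PLT1 and PLT2 were also at 0 in Col, Ler and cl_sml1, CLV3 in Col, WUS in Ler and cl_sml1, and AP1 and LFY in cl_sml1. The summed level of the 5 apex markers was 13.3 to 32.5 in cl_sml2, against 18.9 to 60.0 in Col and 24.9 to 41.6 in Ler. The summed level of the 8 floral markers was 69.6 to 97.3 in cl_sml2, against 140 to 239 in Col and 129 to 164 in Ler, and that of the 6 root markers was 622 to 700 in cl_sml2, against 681 to 806 in the parents. The summed level of the 4 phloem markers was 14663 to 17696 in cl_sml2, against 10746 to 14003 in the parents, with SWEET12 (1.95) and SWEET11 (1.17) called higher and APL (-0.77) called lower against MPV on the log2 scale. For the 5 guard cell markers the summed level was 848 to 955 in cl_sml2, against 1015 to 1260 in the parents, and of the 4 tested SPCH, a regulator of the stomatal lineage (-4.18 ± 0.72, adjusted p = 5.4e-05), and KAT1, a potassium channel of guard cells (-0.56 ± 0.13, adjusted p = 8.2e-04), were called lower against MPV. SPCH had 0.93, 1.56 and 1.86 normalized counts in cl_sml2, against 8.42, 24.0 and 9.81 in Col and 21.9, 53.6 and 49.5 in Ler. The part of these cell types in the changes below was not tested.

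To see which parental genes the line carries in expressed form, 145 marker genes were used that had at least 50 counts in every library of 1 parent and at most 3 in every library of the other: 102 were expressed in Col only and 43 in Ler only. The reads of Ler were mapped to the Col genome, so that a gene that is absent or diverged in Ler also reads as silent, and this cannot be told apart from lack of expression. In cl_sml2 79 of the 145 markers were at the level of Col, 46 were at the level of Ler and 20 lay between, and no marker had 1 plant of the line at the Col level and another at the Ler level. Of the markers at a parental level 63.2% were therefore of the Col type (95% exact binomial interval 54.1% to 71.6%, which treats linked markers as independent and covers counting error only).

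**Figure D1:**
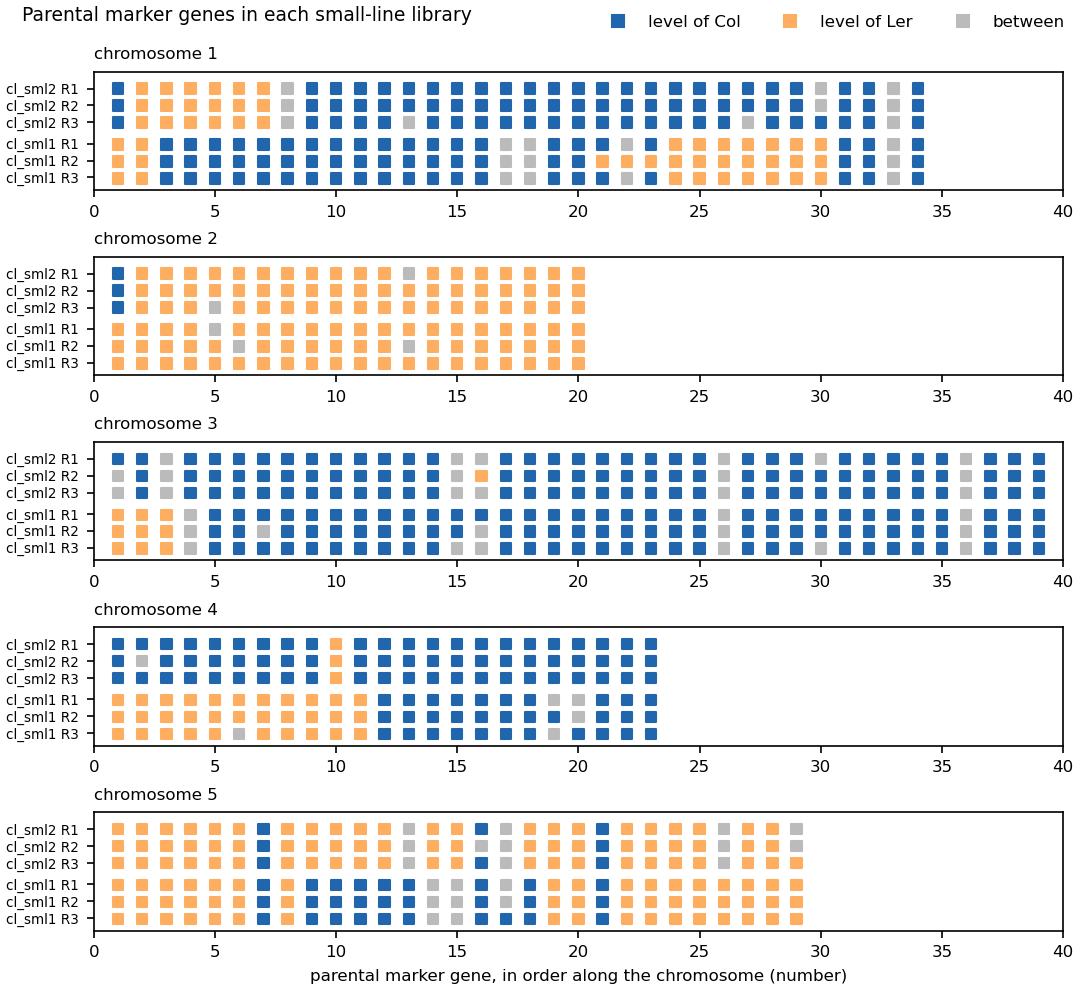
Marker genes expressed in 1 parent only, numbered in their order along each of the 5 chromosomes (x axis), with a row for each library (cl_sml2 above cl_sml1) and a square coloured blue at the level of Col, orange at the level of Ler and grey between. In cl_sml2 chromosome 3 is blue at all 32 decided markers, and chromosomes 2 and 5 are almost wholly orange.

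The markers fell into long runs, here described over the markers at a parental level (decided markers). On chromosome 3 all 32 decided markers were at the Col level, and on chromosome 4 21 of 22, the exception being AT4G08093. On chromosome 2 17 of 18 decided markers were at the Ler level, with AT2G01090 as the exception, and on chromosome 5 22 of 24, with AT5G20750 and AT5G37175 as the exceptions. Chromosome 1 was mixed, with 23 markers at the Col level and 6 at the Ler level, and a run of Ler-type markers reached from AT1G11150 to AT1G15890. Genes that had not been used as markers were compared in the same runs. Of the genes called between Col and Ler that lie in Col-type runs, 1489 of 2296 (64.9%) were nearer to Col in cl_sml2, and of those in Ler-type runs, 855 of 1346 (63.5%) were nearer to Ler. The share of Col-type markers was 60.7% to 63.5% when the count limits of the marker rule were changed.

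In cl_sml2, 9057 of 17919 genes tested were called against MPV (50.5%), of which 4254 were higher (23.7%) and 4803 were lower (26.8%). Of these 2936 were changed at least 2-fold, 1312 of them higher and 1624 lower. With total-count scaling 8006 genes were higher and 2958 were lower, so the balance between the directions depended on the scaling. The counts of the gene lists below are to be read against the shares of all genes called here, 23.7% higher and 26.8% lower. A call against MPV can arise where the line has the level of 1 parent and the parents differ. For this reason cl_sml2 was also set against Col and against Ler separately: 5884 of 17579 genes (33.5%) were called above both parents or below both parents, 2925 above (16.6%) and 2959 below (16.8%). Of the 8954 genes called against MPV that were tested in both ways, 5872 (65.6%) were beyond both parents. Without the cl_sml2 library R2, 1847 genes were above both parents, and without Ler R3 6029 genes were beyond both parents in either direction.

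Genes of the leaf surface and the wall were among the 10 largest falls in protein-coding genes. PDF1 (PROTODERMAL FACTOR 1), a gene of the epidermis of young organs, had 4.63, 3.91 and 5.57 normalized counts in the cl_sml2 plants, against 160.0, 357 and 164 in Col and 113, 319.6 and 378 in Ler, a log2 fold change of -5.72 ± 0.77 (adjusted p = 2.6e-06). PME5, a pectin methylesterase, had 13.0, 14.9 and 15.8 in cl_sml2, against 148 to 385 in the parents (-4.10 ± 0.44, adjusted p = 9.7e-08). Both genes were lower in each plant of the line than in any parental library. In bulk leaves, fewer cells of a type and less RNA per cell cannot be told apart. AT4G16920, a TIR-NBS-LRR resistance gene whose close copies make its count uncertain, had 22.2, 29.7 and 39.9 in cl_sml2, against 73.7, 44.8 and 46.9 in Col and 1568, 1819 and 2328 in Ler. The level was below that of Col and far below that of Ler. For AT2G25510 the values were 5.56, 5.48 and 5.57 in cl_sml2, against 12287, 11150.4 and 14081 in Col and 6.97, 19.7 and 9.57 in Ler. For AT4G19240 they were 0, 0 and 0.93 in cl_sml2, against 1.05, 1.09 and 1.09 in Col and 909, 773 and 855 in Ler, so that in each of these the parents themselves stood far apart. The other falls of this group, from -5.16 to -3.81 on the log2 scale, were AT1G60590, AT2G27385, AT2G40920, AT1G11850 and AT4G28780.

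Of the 10 largest rises, 4 stayed called without the plant R2. WNK9, a kinase gene of the WNK family, had 271, 206 and 194 normalized counts in cl_sml2, against 1.05, 1.09 and 0 in Col and 14.9, 2.19 and 12.8 in Ler (5.29 ± 0.49, adjusted p = 1.2e-08). AT3G28510 had 344, 500.0 and 225 in cl_sml2, against 0 to 12.0 in the parents (5.92 ± 0.79, adjusted p = 2.1e-06), and PR1 is given below with the other defence genes. GSTU3, a glutathione S-transferase, was the last of these, at a log2 fold change of 3.47 (adjusted p = 0.0037) in place of 5.80. The calls of the other rises in this group rested on R2, although by the rule of choice each cl_sml2 plant was above every parental library. AOX1D, an alternative oxidase of the mitochondrion, had 102, 2325 and 202 in cl_sml2 R1, R2 and R3, against 2.19 to 28.4 in the parents, and without R2 its change was 3.16 (adjusted p = 0.059). Without R2 the calls were also lost for WRKY75 (2.79, adjusted p = 0.067), AT1G30700 (1.36, adjusted p = 0.27), BRU6, which conjugates auxin to amino acids (1.57, adjusted p = 0.2), and NAC055 (1.7, adjusted p = 0.15). MAPKKK19 came to 5.19 with R2 and to 2.12 (adjusted p = 0.0504) without it. In cl_sml1 the same genes, from AOX1D to MAPKKK19, were also called higher against MPV, at 4.33 (MAPKKK19) to 6.17 (AOX1D). AOX1D had 462, 666 and 2516 normalized counts in the cl_sml1 plants.

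Genes of the cell wall were lower in cl_sml2. Of the 15 genes tested of cellulose synthase (CESA) and UDP-sugar conversion, 11 were lower against MPV and none was higher, with a median log2 fold change of -0.69 and 7 below both parents. CESA3, a catalytic subunit of primary wall cellulose synthesis, had 5359.7, 4506 and 5386 normalized counts in cl_sml2, against 7893, 8390.4 and 8055 in Col and 6077, 6894 and 5727 in Ler, that is 69.8% of MPV (-0.52 ± 0.08, adjusted p = 9.8e-06). CESA1 and CESA6, which form the same complex, changed by -0.42 and -0.53. With total-count scaling CESA1 was not called (-0.16, adjusted p = 0.1), and the list had 3 genes higher and 7 lower. Of 12 expansin genes, whose products loosen the wall, 9 were lower and none was higher, with a median of -1.29 (9 lower and 1 higher with total-count scaling). EXPA5 had 518, 394 and 597 in cl_sml2, against 1657, 1854 and 1788 in Col and 1547, 1699 and 898 in Ler (-1.67 ± 0.20, adjusted p = 4.3e-07), and EXPA15 changed by -2.61 ± 0.44 (adjusted p = 4.3e-05). Each cl_sml2 plant had less EXPA5 RNA than any parental library.

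The XTH family, which cuts and rejoins xyloglucan chains, was split. Of 24 XTH genes tested 11 were lower and 4 were higher, with a median of -0.18 (0.08 with total-count scaling). XTH7 had 1071, 996 and 1245 normalized counts in cl_sml2, against 4085, 4212 and 4819 in Col and 3515, 5274 and 2531 in Ler, 26.7% of MPV (-1.91 ± 0.15, adjusted p = 1.9e-09). XTH8 fell further (-2.49 ± 0.29, adjusted p = 3.0e-07). Without R2 the number of higher XTH genes was 1 in place of 4, and XTH10 had 9.27, 496 and 26.0 in R1, R2 and R3, with a log2 fold change of 2.66 with R2 and -0.66 without it.

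Genes of auxin-driven cell elongation and of cell division were lower as well. All 6 genes of the SAUR19 group, small proteins that promote cell expansion, were lower than MPV and below both parents, with a median of -1.57. SAUR19 had 0.93, 1.56 and 0.93 normalized counts in cl_sml2, against 43.2, 19.7 and 42.5 in Col and 8.96, 16.4 and 8.78 in Ler (-4.22 ± 0.52, adjusted p = 6.9e-07). The group consists of near-identical copies whose reads may have been divided or lost in counting. Of 25 genes that the annotation names IAA with a number, repressors of auxin response except for a few auxin response factors under old names, 14 were lower, with IAA17 (-2.22 ± 0.18, adjusted p = 2.1e-09) and IAA14 (-2.16 ± 0.27, adjusted p = 9.1e-07) among them. The higher genes of this list were IAA21 (0.26 ± 0.08, adjusted p = 0.012) and IAA26 (0.47 ± 0.17, adjusted p = 0.023), at 0.19 (adjusted p = 0.082) and 0.46 (adjusted p = 0.052) without R1. With total-count scaling 8 genes of the list were lower and 3 higher. Of 28 cell cycle genes 17 were lower and none was higher, with a median of -0.83 and 14 below both parents (13 lower and 5 higher with total-count scaling). CYCD3;1, a cyclin that drives leaf cells into division, had 39.8, 50.9 and 63.1 in cl_sml2, against 178, 242 and 164 in Col and 142, 172 and 108 in Ler (-1.73 ± 0.32, adjusted p = 1.1e-04). The mitotic genes CYCB1;4 (-2.30), CDKB1;1 (-1.97) and CYCB1;2 (-1.86) were lower by similar amounts. Of the 7 genes tested of the growth-regulating factors and their co-activators, GRF2, GRF4 (-2.29) and GIF1 were lower and none was higher, and with total-count scaling 3 were lower and 1 was higher. ER, the ERECTA receptor kinase of which Ler carries a mutant form, had 358, 293 and 328 in cl_sml2, against 799, 1084 and 980.4 in Col and 668, 1062 and 813 in Ler (-1.49 ± 0.15, adjusted p = 6.5e-08). ER lies on chromosome 2, where 17 markers were at the Ler level in cl_sml2 and 1 at the Col level. Which form of ER the line carries was not tested.

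**Figure D2:**
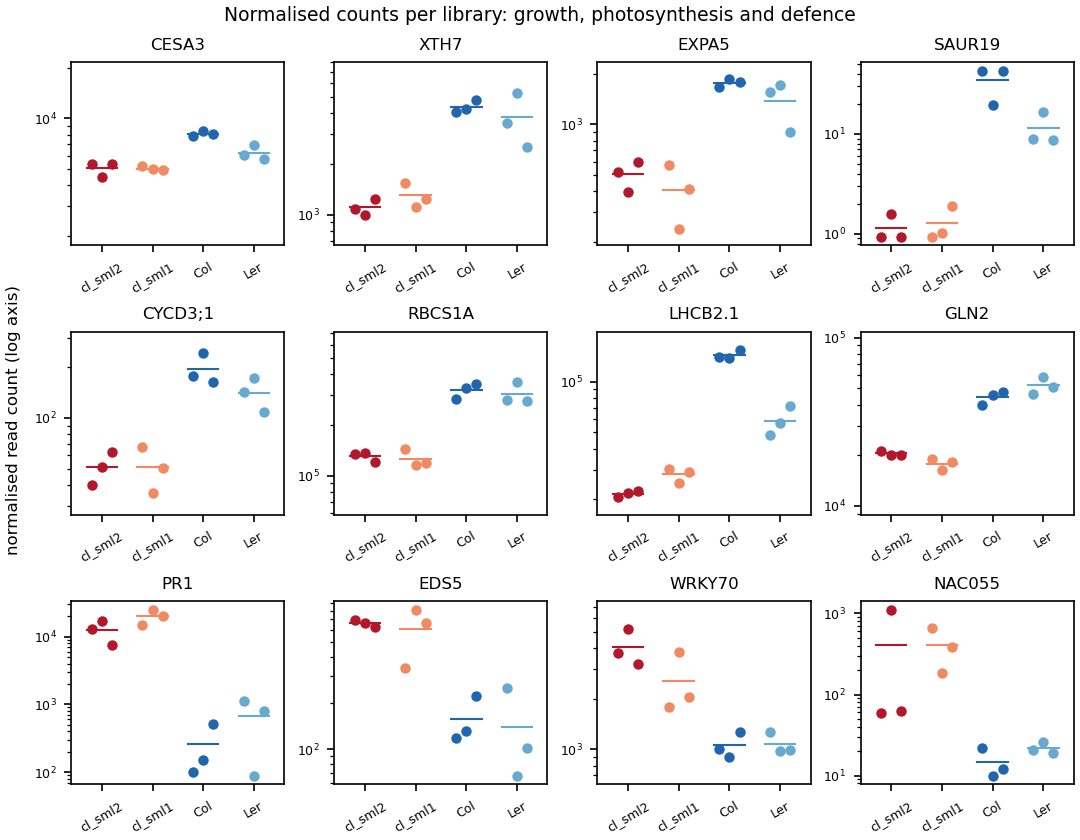
Normalized counts (log axis) in the 3 libraries of each group, cl_sml2 to the left of cl_sml1, Col and Ler, for genes of growth, photosynthesis and defence. The cl_sml2 points of the growth and photosynthesis genes lie under both parents, and those of PR1, EDS5 and WRKY70 lie above both.

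Photosynthesis genes were lower throughout. All 46 photosynthesis genes tested were lower than MPV in cl_sml2, between -2.48 (LHCB2.3) and -0.49 (PSAE2) on the log2 scale with a median of -0.96, and 44 were below both parents. All 46 stayed lower with total-count scaling. RBCS1A, a small subunit of Rubisco, had 134217, 136039 and 121290.0 normalized counts in cl_sml2, against 283811, 332875 and 350862 in Col and 280736, 361204 and 278532 in Ler, 40.8% of MPV (-1.29 ± 0.11, adjusted p = 6.2e-09). RCA, the Rubisco activase, changed by -1.61 ± 0.12 (adjusted p = 3.3e-10). For LHCB2.1, an antenna protein of photosystem II with close copies, the values were 20659, 21729.8 and 22292 in cl_sml2, 140134, 138401 and 154134 in Col and 48172, 56366 and 71238 in Ler (-2.25 ± 0.12, adjusted p = 5.9e-13). The parents differed at this gene, and cl_sml2 was below both. The 8 leaf mesophyll markers, which include genes of this list, were all lower against MPV with a median of -1.60, and their summed level was 445702 to 472060 in cl_sml2, against 1026000 to 1445410 in the parents.

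Nitrogen genes moved in both directions. Of 15 tested 4 were higher and 6 were lower against MPV, where 23.7% of all genes were higher and 26.8% were lower. The lower genes were the nitrate transporter NRT1.1, the nitrate reductases NIA1 and NIA2, the nitrite reductase NIR1, the plastid glutamine synthetase GLN2 and the glutamate synthase GLU1, at log2 fold changes between -1.51 (GLU1) and -0.89 (NRT1.1). GLN2 had 21314, 20103 and 20194 normalized counts in cl_sml2, against 39719.7 to 58417 in the parents (-1.25 ± 0.10, adjusted p = 2.7e-09). Higher were the cytosolic glutamine synthetase GLN1;1 (1.36 ± 0.18, adjusted p = 2.0e-06), the phloem nitrate transporter NRT1.7 (1.37 ± 0.23, adjusted p = 4.7e-05), the asparagine synthetase ASN1 (2.18 ± 0.57, adjusted p = 0.0028) and NRT1.8. The call of NRT1.8 rested on R2, without which its change was 1.59 (adjusted p = 0.39) in place of 4.02.

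**Figure D3:**
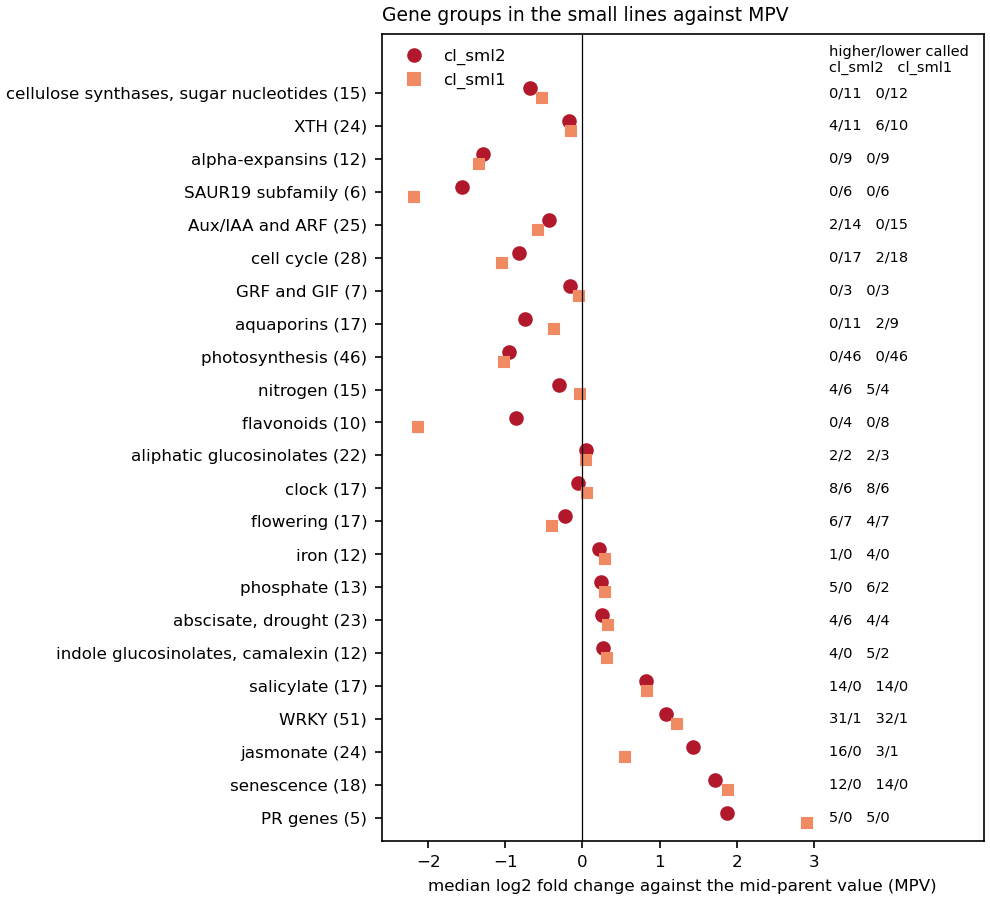
Median log2 fold change against MPV of each gene list in cl_sml2 and in cl_sml1 (x axis), with the number of genes called higher and lower written beside each list. Photosynthesis, SAUR19 and expansin genes lie on the lower side in both lines, and salicylate, WRKY and PR genes on the higher side.

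Genes of salicylic acid defence were higher. Of 17 salicylate genes 14 were higher against MPV and none was lower, with a median of 0.83 and 13 above both parents, and all 5 PR genes were higher, 4 of them above both parents. PR1, the usual marker of this response, had 12799, 17143 and 7559.6 normalized counts in cl_sml2, against 102, 152 and 520.2 in Col and 1116, 87.6 and 803 in Ler (4.71 ± 0.81, adjusted p = 5.1e-05). Its level varied widely within Ler and within Col, but all 3 cl_sml2 plants were above every parental library. EDS5, which exports the precursor of salicylic acid from the chloroplast, had 696, 667 and 629 in cl_sml2, against 119, 132 and 222 in Col and 251, 66.8 and 102 in Ler (2.12 ± 0.34, adjusted p = 2.4e-05). ICS1, the isochorismate synthase of the same pathway, changed by 0.83 ± 0.21 (adjusted p = 0.002), its activator SARD1 by 1.89 ± 0.24 (adjusted p = 1.3e-06), FMO1, needed for systemic resistance, by 3.45 ± 0.78 (adjusted p = 8.6e-04) and NPR1 by 0.48 ± 0.11 (adjusted p = 0.001). ACD6, a locus at which accessions differ in defence and size, was at 16407, 19443 and 12024 in cl_sml2, against 8024, 7341 and 8705 in Col and 1436, 837 and 1489 in Ler (1.76 ± 0.28, adjusted p = 1.7e-05). PAD4 was not called (0.44 ± 0.20, adjusted p = 0.071).

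Of 51 WRKY transcription factor genes 31 were higher and 1 was lower, with a median of 1.08 and 26 above both parents. Without R2 the numbers were 23 higher and 1 lower. WRKY70, which acts downstream of salicylic acid, had 3741, 5166 and 3224 normalized counts in cl_sml2, against 999, 905 and 1259.5 in Col and 1258, 981 and 988 in Ler (1.90 ± 0.29, adjusted p = 1.0e-05). It was well above the parents in each plant. WRKY62 (4.44), WRKY38 (3.12) and WRKY18 (2.67) rose further on the log2 scale. WRKY16, the lower gene, was at -0.34, and at -0.08 and not called with total-count scaling.

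Of 18 senescence genes 12 were higher and none was lower, with a median of 1.72 and 11 above both parents. Without R2 5 genes were higher and the median was 0.92. SAG13, induced early in senescence and by pathogens, had 2221, 7310.0 and 3994 normalized counts in cl_sml2, against 167 to 1037 in the parents (3.11 ± 0.90, adjusted p = 0.0065). SAG14 had 4614, 9416 and 8837 in cl_sml2, against 461 to 1298 in the parents (3.32 ± 0.60, adjusted p = 8.9e-05). R2 was the highest of the 3 plants in both genes, and every plant was above the parents.

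Jasmonate genes were higher in cl_sml2: 16 of 24 were called higher against MPV and none was lower, with a median of 1.43 and 14 above both parents, and 14 were higher without R2. Genes of its synthesis were among them. AOC2, an allene oxide cyclase of that pathway, had 13429, 9391 and 10876 normalized counts in cl_sml2, against 4174, 3163 and 4629 in Col and 2641, 2469.6 and 4377 in Ler (1.63 ± 0.19, adjusted p = 3.6e-07). LOX2, the first enzyme, changed by 0.89 ± 0.23 (adjusted p = 0.0029) and OPR3, a later one, by 1.34 ± 0.35 (adjusted p = 0.003). The repressor genes JAZ1 (2.09 ± 0.41, adjusted p = 2.1e-04) and JAZ10 (2.19 ± 0.61, adjusted p = 0.0046) were higher, while the vegetative storage protein genes VSP1 (1.52 ± 0.70, adjusted p = 0.076) and VSP2 (0.05 ± 0.61, adjusted p = 0.95) and the 3 defensin genes of the PDF1.2 group were not called. The enzymes of camalexin synthesis CYP71A13 (3.42 ± 0.92, adjusted p = 0.0036) and CYP71B15 (3.34 ± 0.77, adjusted p = 9.6e-04) were also higher.

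The clock genes moved in both directions. Of 17 clock genes 8 were higher and 6 were lower, and 8 of these were above and 5 below both parents. Morning genes were lower: CCA1 had 257, 563 and 327 normalized counts in cl_sml2, against 1213, 1515 and 1214 in Col and 1678, 2070.0 and 1523 in Ler (-2.02 ± 0.22, adjusted p = 1.7e-07), and LHY changed by -2.43 ± 0.30 (adjusted p = 9.2e-07). Evening genes were higher: TOC1 had 3547, 3079.6 and 2760.4 in cl_sml2, against 859, 704 and 928 in Col and 634, 512 and 808 in Ler (2.05 ± 0.12, adjusted p = 1.3e-11), and ELF4 had 1021, 867 and 1004 in cl_sml2, against 213, 205 and 280.3 in Col and 51.8, 27.4 and 154 in Ler (2.61 ± 0.21, adjusted p = 1.3e-09). PRR3, PRR5, GI, ELF3, LUX and FKF1 were higher too, at 0.92 (GI) to 2.64 (FKF1), and PRR9, RVE4, RVE8 and CHE were lower, at -1.76 (RVE8) to -0.32 (CHE). The paper gives a harvest time, counted from dawn, for the samples of its other cross, Ws/Ler. It states none separately for the Col/Ler plants. The part of the harvest time in these changes was not tested.

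Of 17 flowering genes tested 6 were higher and 7 were lower (8 higher and 4 lower with total-count scaling). The floral repressor MAF1 had 46.3, 77.5 and 136 normalized counts in cl_sml2, against 642, 667 and 694 in Col and 119, 139 and 195 in Ler (-2.26 ± 0.22, adjusted p = 2.4e-08). FT, the signal for flowering made in leaves, changed by 0.99 ± 0.33 (adjusted p = 0.016), and by 0.71 (adjusted p = 0.087) without the MPV library of replicate 2. The repressors MAF2 (0.49 ± 0.09, adjusted p = 1.7e-04) and TEM1 (0.69 ± 0.14, adjusted p = 4.1e-04) were higher, as was SPL4 (0.85 ± 0.15, adjusted p = 6.1e-05), which promotes flowering.

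Aquaporin genes, channels for water in the plasma membrane (PIP) and the vacuole (TIP), were lower. Of 17 genes 11 were lower against MPV and below both parents, and none was higher, with a median of -0.75. PIP2A had 15971, 10904 and 14480.0 normalized counts in cl_sml2, against 31334, 33748 and 32122 in Col and 24642, 38749 and 39302 in Ler (-1.29 ± 0.14, adjusted p = 8.1e-08). TIP2;1 (-2.07 ± 0.22, adjusted p = 1.2e-07) and PIP3 (-1.82 ± 0.17, adjusted p = 1.8e-08) had the largest falls of the list.

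**Figure D4:**
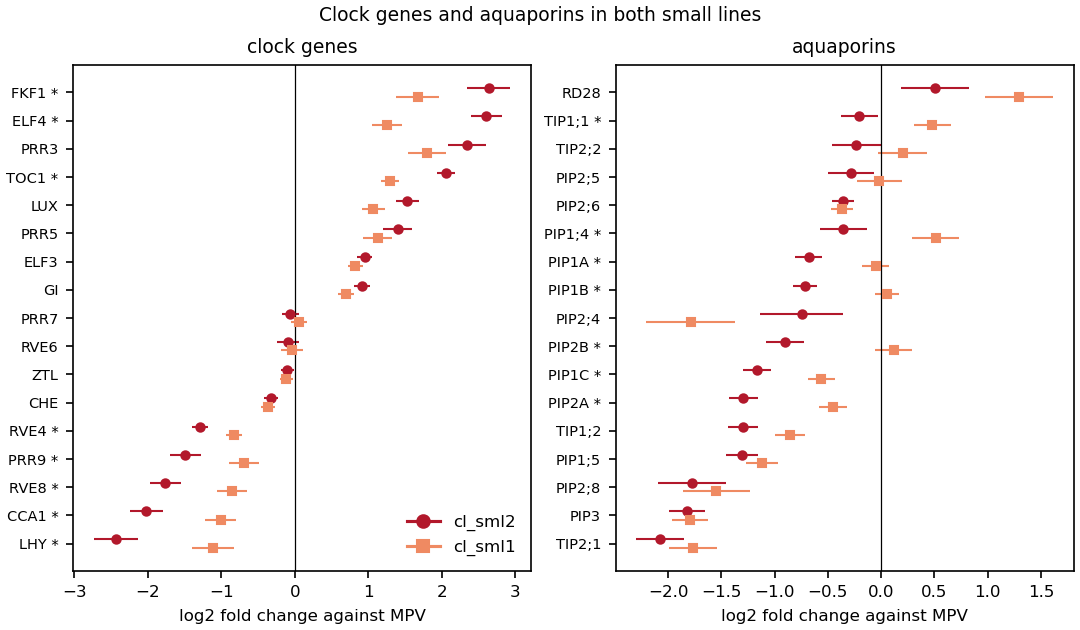
Log2 fold change against MPV (x axis) of the 17 clock genes (left) and the 17 aquaporin genes (right) in cl_sml2 (circles) and in cl_sml1 (squares), with bars of 1 SE. An asterisk marks the genes called between the lines. The 8 clock genes with an asterisk lie farther from 0 in cl_sml2 than in cl_sml1, and PIP2A is at -1.29 in cl_sml2 and -0.45 in cl_sml1.

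Of 10 anthocyanin and flavonoid genes tested 4 were lower and none was higher, among them CHS, the first enzyme of the pathway (-2.45 ± 0.30, adjusted p = 6.4e-07), and without R2 2 were lower. Of 13 phosphate starvation genes 5 were higher and none was lower, with PAP17 (1.74 ± 0.35, adjusted p = 3.2e-04) and SPX1 (1.05 ± 0.23, adjusted p = 5.9e-04) among them. Of 23 genes of abscisic acid and drought 4 were higher and 6 were lower (8 higher and 5 lower with total-count scaling). Neither direction exceeded the share of all genes (23.7% higher, 26.8% lower). The lower genes of this list included ABA1 (-1.33 ± 0.14, adjusted p = 1.1e-07) and ABA2 (-1.15 ± 0.11, adjusted p = 2.5e-08), enzymes of abscisic acid synthesis. Of 12 iron genes 1 was higher (FRO3, a ferric reductase), and without R2 4 were higher.

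Several loci with unequal expression in Col and Ler were near the level of 1 parent in cl_sml2. Glucosinolates are defence compounds of Arabidopsis leaves that myrosinases activate. AOP2, which makes alkenyl glucosinolates, had 2677, 2332 and 2779 normalized counts in cl_sml2, against 1835, 1962 and 1776 in Col and 29.9, 23.0 and 38.3 in Ler, and its neighbour AOP3, which makes hydroxyalkyl glucosinolates, had 8.34, 5.48 and 6.49 in cl_sml2, against 3.16, 10.9 and 9.81 in Col and 22138, 21072 and 15224 in Ler. Both were near the Col level, as were the markers around them on chromosome 4. AOP2 was above every Col library in each cl_sml2 plant. RNA levels at AOP2 and the other loci named here, FRI below included, do not show whether the allele is functional, which was not tested. ESP, which diverts the products of myrosinase to nitriles, had 1458, 1053 and 1581 in cl_sml2, against 1782, 1268 and 1746 in Col and 85074, 94463 and 84765 in Ler. The myrosinase gene TGG2 had 73.2, 61.8 and 64.0 in cl_sml2, against 29013, 27119 and 27492 in Col and 43.8, 46.0 and 28.7 in Ler, so that it was at the Ler level on chromosome 5, whereas its close homologue TGG1 was not called (0.11 ± 0.17, adjusted p = 0.63). TGG1 was chosen for the text after its values were seen. MAM3, which elongates the side chain of the longer glucosinolates, had 15867, 11125 and 18293 in cl_sml2, against 733, 679 and 675 in Col and 13071, 8166 and 6423 in Ler (1.57 ± 0.24, adjusted p = 1.5e-05). MYB29, a regulator of the aliphatic pathway, was lower (-1.46 ± 0.33, adjusted p = 9.5e-04), and of the 22 genes of that list 2 were higher (MAM3 and AOP2) and 2 were lower (MYB29 and AOP3). Of these 22 genes 1 was called above both parents and none below both.

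**Figure D5:**
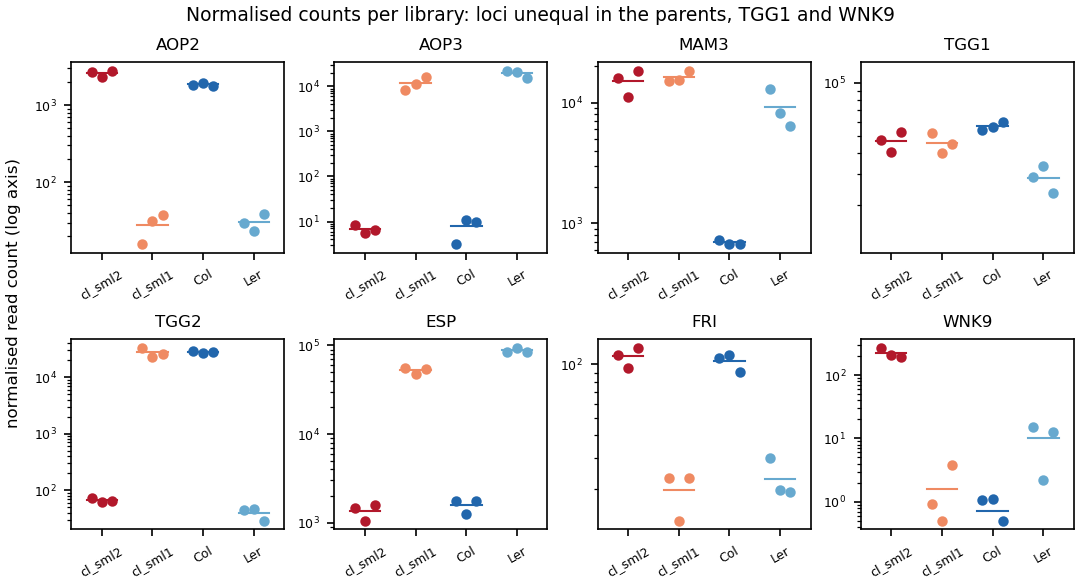
Normalized counts (log axis, with values under 0.5 drawn at 0.5) of loci with unequal expression in the parents, in the 3 libraries of cl_sml2, cl_sml1, Col and Ler, in this order. At AOP2, AOP3, ESP, TGG2 and FRI the cl_sml2 points lie with 1 parent and the cl_sml1 points lie elsewhere.

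The second question was where cl_sml2 differs from cl_sml1. The direct contrast called 1206 of 17919 genes (6.73%), 642 higher in cl_sml2 (3.58%) and 564 lower (3.15%), and 413 of them differed at least 2-fold (227 higher, 186 lower). Without the cl_sml2 library R1, 747 genes were called, and 567 were called when only the 6 small line libraries were fitted. Against MPV cl_sml1 itself had 9126 genes called (50.9%), 4150 higher and 4976 lower, from the same MPV libraries as cl_sml2. Of the 1199 genes called between the lines that were tested in both fits, 713 (59.5%) were also called between Col and Ler, which is 14.1% of the 5050 genes so called. Over all genes tested, 5050 of 17579 (28.7%) were called between Col and Ler, and 6.73% were called between the lines.

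The markers of both lines were at the same parent's level at 86 of the 112 genes at which both could be decided, and at opposite parents at 26. Unlike those of cl_sml2, the cl_sml1 plants disagreed at 2 markers, both on chromosome 1. AT1G07323 had raw counts of 121, 2 and 151 in cl_sml1, and AT1G47565 had 135, 0 and 92. On the upper arm of chromosome 1 cl_sml2 was of the Ler type where cl_sml1 was of the Col type (AT1G12010 to AT1G15890), and in the middle of it the reverse held (AT1G51430 to AT1G58590). At the top of chromosome 4 (AT4G01915 to AT4G08110, apart from AT4G08093, silent in both lines) cl_sml2 was of the Col type and cl_sml1 of the Ler type, and in the middle of chromosome 5 (AT5G27100 to AT5G35796) cl_sml2 was of the Ler type and cl_sml1 of the Col type. The calls between the lines were denser there: in runs with opposite parents 268 of 1370 genes that were not markers were called (19.6%), against 365 of 9974 (3.66%) in runs with the same parent and 525 of 6430 (8.16%) in genes not assigned to a run.

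The genes with the largest differences between the lines were mostly on or off. In raw counts AT1G50290 had 2350, 2762 and 2614 in the cl_sml2 plants, against 0, 0 and 2 in those of cl_sml1. MSRB4, a methionine sulfoxide reductase, had 277, 279 and 361 in cl_sml2, against 1, 1 and 0 in cl_sml1, and AT4G01915 had 285, 359 and 244 in cl_sml2, against 1, 0 and 0 in cl_sml1. In each case the gene read as expressed in cl_sml2 and not in cl_sml1. AT1G50290 was expressed in both parents, at raw counts of 152, 123 and 143 in Col and 1346, 1965 and 2918 in Ler. MSRB4 and AT4G01915 were expressed in Col and not in Ler. Lower in cl_sml2 was AT1G14250, with raw counts of 0, 0 and 0 in cl_sml2, against 427, 207 and 365 in cl_sml1. AOP3 had 8336, 11229 and 16269.6 normalized counts in cl_sml1, far above the cl_sml2 values given earlier, and AOP2 had 15.8, 31.7 and 37.3, far below them. TGG2 and ESP were also higher in cl_sml1, at 33146, 23039 and 25814 for TGG2 and 56397, 48044 and 53780.0 for ESP. FRI, a regulator of flowering time, had 113, 95.5 and 124 normalized counts in cl_sml2, against 23.2, 13.3 and 23.0 in cl_sml1, with 90.5 to 114 in Col and 19.1 to 29.9 in Ler.

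Clock genes differed between the lines. Of 17 tested 3 were higher and 5 were lower in cl_sml2 than in cl_sml1. TOC1 had 3547, 3079.6 and 2760.4 normalized counts in cl_sml2, against 1708, 2049 and 1790.2 in cl_sml1 (0.75 ± 0.12, adjusted p = 1.5e-04), and ELF4 1021, 867 and 1004 in cl_sml2, against 316, 341 and 467 in cl_sml1 (1.36 ± 0.20, adjusted p = 5.0e-05). CCA1 had 257, 563 and 327 in cl_sml2, against 841, 596 and 872 in cl_sml1 (-1.01 ± 0.22, adjusted p = 0.005). In cl_sml1 the same genes had moved from MPV in the same directions and by less, with log2 fold changes of 1.3 for TOC1, 1.25 for ELF4 and -1.01 for CCA1. The calls of LHY (-1.32 ± 0.31, adjusted p = 0.0077) and FKF1 (0.97 ± 0.28, adjusted p = 0.036) did not hold without single libraries: without R1 of cl_sml2 they were -1.05 (adjusted p = 0.066) and 0.88 (adjusted p = 0.14). With only the 6 small line libraries in the fit, CCA1, LHY, PRR9, RVE4 and RVE8 were not called.

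Aquaporin genes were lower in cl_sml2 than in cl_sml1 at 7 of 17 and higher at none. PIP2A had 15971, 10904 and 14480.0 normalized counts in cl_sml2, against 26107, 21275 and 26371 in cl_sml1 (-0.84 ± 0.13, adjusted p = 1.6e-04), PIP1B 14162, 11574 and 12694 in cl_sml2, against 21876, 21097 and 22333 in cl_sml1 (-0.77 ± 0.11, adjusted p = 3.7e-05), and PIP2B changed by -1.02 ± 0.18 (adjusted p = 4.6e-04). In each of these genes the lines did not overlap. With only the 6 small line libraries in the fit these 3 genes stayed called, and PIP1A (-0.64, adjusted p = 0.06), PIP1C (-0.61, adjusted p = 0.13), PIP1;4 (-0.88, adjusted p = 0.22) and TIP1;1 (-0.69, adjusted p = 0.09) were not. The calls of PIP1;4 and TIP1;1 were also lost without R2 of cl_sml2, at -0.62 (adjusted p = 0.087) and -0.56 (adjusted p = 0.089). Against MPV 11 of 17 aquaporin genes were lower in cl_sml2, and in cl_sml1 2 were higher and 9 were lower.

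Of 24 jasmonate genes 3 were higher in cl_sml2 than in cl_sml1, all of them enzymes of synthesis. AOC2 had 13429, 9391 and 10876 normalized counts in cl_sml2, against 4449.9, 4971 and 5615 in cl_sml1 (1.16 ± 0.19, adjusted p = 2.0e-04), AOC4 changed by 0.53 ± 0.11 (adjusted p = 0.0034) and AOS by 1.0 ± 0.22 (adjusted p = 0.0055). The call of AOS was lost when only the small line libraries were fitted, and without R1 its difference was 0.83 (adjusted p = 0.052). Against MPV 16 jasmonate genes were higher in cl_sml2, and in cl_sml1 3 were higher and 1 was lower, with medians of 1.43 in cl_sml2 and 0.56 in cl_sml1.

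Single genes of other lists also separated the lines. CYCB2;3, a mitotic cyclin, had 109, 82.2 and 99.2 normalized counts in cl_sml2, against 21.3, 14.3 and 16.3 in cl_sml1 (2.47 ± 0.25, adjusted p = 1.6e-07), while against MPV it was not called in cl_sml2 (-0.06 ± 0.21, adjusted p = 0.82). WNK9 had at most 3.83 normalized counts in cl_sml1, where cl_sml2 had 194 to 271. MAF1 (-1.12 ± 0.23, adjusted p = 0.0022), NRT1.1 (-0.64 ± 0.12, adjusted p = 0.0012) and XTH24 (-1.07 ± 0.19, adjusted p = 5.0e-04), an endotransglucosylase, were lower in cl_sml2 than in cl_sml1. MAF1 was not called with only the 6 small line libraries in the fit (-1.12, adjusted p = 0.17). Of 10 anthocyanin genes FLS1 (1.1 ± 0.34, adjusted p = 0.05) and MYB75 (1.14 ± 0.35, adjusted p = 0.049) were higher in cl_sml2 than in cl_sml1, and without R3 they were 0.99 (adjusted p = 0.15) and 0.88 (adjusted p = 0.21). Against MPV 4 of the list were lower in cl_sml2 and 8 in cl_sml1.

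For the main growth and defence groups the direct contrast called few genes. Over all genes it called 6.73%, and at that share lists of this size would hold few calls too. It called none of the 15 cellulose and sugar genes, none of the 6 SAUR19 genes, none of the 5 PR genes and none of the 51 WRKY genes, 1 of the 12 expansin genes (EXPA1, lower), 1 of the 17 salicylate genes (CBP60G, lower) and 1 of the 18 senescence genes (NYE1, lower). Without R1 of cl_sml2 these were EXPA1 at -0.54 (adjusted p = 0.092), CBP60G at -1.27 (adjusted p = 0.086) and NYE1 at -0.41 (adjusted p = 0.19), so that none of the calls held. At an unadjusted p of 0.05 or less edgeR's test had 1 of the cellulose and sugar genes higher, 1 SAUR19 gene higher, 2 PR genes lower, and 1 WRKY gene higher and 1 lower, and DESeq2 called 1 cellulose and sugar gene higher and none of the SAUR19, PR and WRKY genes. Against MPV the 6 SAUR19 genes had a median of -1.57 in cl_sml2 and -2.19 in cl_sml1, the expansin genes had medians of -1.29 in cl_sml2 and -1.34 in cl_sml1, and the PR genes had medians of 1.88 in cl_sml2 and 2.91 in cl_sml1. The missing calls do not show that the lines are alike. PR1 had 12799, 17143 and 7559.6 normalized counts in cl_sml2, against 14616, 24966 and 20174 in cl_sml1 (-0.68 ± 0.69, adjusted p = 0.7), and the plants of the lines overlapped. Of the 46 photosynthesis genes, all lower than MPV in both lines (medians -0.96 in cl_sml2 and -1.02 in cl_sml1), RCA (-0.47 ± 0.11, adjusted p = 0.01), LHCB1.1 (-0.42 ± 0.12, adjusted p = 0.037) and LHCB2.1 (-0.39 ± 0.11, adjusted p = 0.031) were lower in cl_sml2 than in cl_sml1, and without R3 of cl_sml2 RCA was at -0.41 (adjusted p = 0.067) and without R1 LHCB1.1 was at -0.37 (adjusted p = 0.18) and LHCB2.1 at -0.36 (adjusted p = 0.13).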

How the data were processed

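RNA from rosette leaves was sequenced, and the authors mapped the reads with STAR 2.5.3a to the TAIR10 genome, took gene counts with the Araport11 annotation and deposited these counts without normalization for 37336 genes in 72 libraries. The strand setting of the counting is not given in the sources used here, so counts of overlapping and antisense genes are uncertain, as are those of near-identical copies. Of the gene identifiers 37051 matched the RefSeq annotation of TAIR10.1, which was used for names and order only. No sample column was left without a sample (0 unused columns).

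Tests were run with the quasi-likelihood F-test of edgeR 4.0.16 in R 4.3.3 after TMM normalization, with Benjamini-Hochberg adjustment and calls at an adjusted p of 0.05 or less. A gene was tested where a library of the fit reached 50 counts. MPV consisted of 3 in-silico libraries, each the rounded sum of 1 Col and 1 Ler library scaled to their mean size. The fit against MPV and cl_sml1 held 27 libraries in 8 groups (both small lines, CL_HM1 to CL_HM4, the reciprocal F1 hybrids as 1 group, MPV), and the fit against each parent 30 libraries in 9 groups. CL_HM5 and CL_HM6 were not used here. "Beyond both parents" means called in the same direction against Col and against Ler. Standard errors come from the fold change and its F statistic.

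Genes named are members of the lists, and for cl_sml2 against MPV the 10 largest rises and falls, for cl_sml2 against cl_sml1 the 8 largest, among called protein-coding genes whose higher group averaged 200 normalized counts or more, without overlap with the parental libraries or with cl_sml1. A gene that met this rule is not reported here. The members and lists were chosen with earlier results of these data known. Alternatives were DESeq2 1.42.0 and its size factors, total-count scaling, other count filters, an unadjusted p, only the groups compared, MPV on the log scale, the replicate number as a block and leaving out single libraries.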

Additional observations from a re-analysis of the deposited data

Results flagged for a closer look

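Of the genes chosen for the text, 15 had both small lines called against MPV in opposite directions and the direct contrast between them called as well. The other genes tested were not searched, and many of the 15 had been chosen for their large difference between the lines. Where the lines have opposite parental levels at an on or off gene, opposite sides of MPV follow from that. The log2 difference between cl_sml2 and cl_sml1 was 2.46 for FRI, 6.52 for AOP2 and -8.69 for TGG2. Higher in cl_sml2 were also AT1G50290 (11.53), AT7SL-1 (10.04), AT4G01915 (9.20), AT4G07825 (9.11), AT1G51430 (8.52), MSRB4 (8.47), AT2G01090 (8.05) and AT4G05040 (7.34). Lower in cl_sml2 were AT4G04402 (-11.75), AT5G28350 (-9.18), AT1G57650 (-6.29) and AT1G20490 (-5.97). Fitted values of genes with counts near 0 in 1 line depend on the prior count and are no bounds. With 3 libraries per group no outlier test was run.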

How the results depend on the processing

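Against MPV, scaling by total counts gave 8006 genes higher and 2958 lower, and beyond both parents 5903 higher and 1767 lower. With at least 50 counts in every library, 1904 genes were higher than both parents. Against cl_sml1, fitting only the groups compared called 567 genes (283 higher, 284 lower), and an unadjusted p of 0.05 or less called 3220 (1734 higher, 1486 lower). Leaving out 1 library at a time gave 7443 to 8672 genes against MPV (3365 to 4267 higher, 3957 to 4517 lower), 747 to 1172 against cl_sml1 (392 to 595 higher, 355 to 577 lower, lowest without cl_sml2 R1), and 4565 to 6029 beyond both parents (1847 to 3010 higher, 2640 to 3166 lower). With 1 library left out XTH10 lay between -0.66 (without cl_sml2 R2) and 3.21 against MPV, and TGG1, not called, between -0.06 (without cl_sml1 R2 or cl_sml2 R3) and 0.13 against cl_sml1. Libraries of cl_sml2 did not deviate together with the same-numbered libraries of cl_sml1, Col or Ler (correlations -0.24 to -0.0209), so the numbers do not pair cl_sml2 with these groups. Col and Ler are joined by number in MPV. Between them the same-numbered correlations were -0.0235, 0.313 and 0.173, against -0.289 to 0.112 for different numbers. Whether the parental libraries are paired was not tested. With the replicate block 8939 genes were called against MPV, 1195 against cl_sml1 and 5836 beyond both parents. The block changed 0 of 148 calls of named genes against MPV and 2 of 67 against cl_sml1. Fitting only the groups compared changed 2 of 148 and 30 of 65 of these calls. The cause was not tested.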
